A study of Mus musculus with 9 samples.

Results

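The genes described here set the pace of G1, the phase of the cell cycle before DNA synthesis. They are the D cyclins Ccnd1, Ccnd2 and Ccnd3, their kinases Cdk4 and Cdk6, the kinase inhibitors Cdkn1a, Cdkn1b, Cdkn1c and Cdkn2c, and the retinoblastoma gene Rb1. They were taken by name, as every probe set whose only gene symbol in the platform annotation was one of these 10, which gave 27 of the 45101 probe sets and 10 of the 18193 named genes. A gene's main value is that of its brightest probe set, by the mean of all 9 arrays, and its other probe sets are reported beside it. The samples are regions cut by laser from the optic cup of mouse embryos at E11.5, hybridised to Affymetrix arrays, 1 array per sample. There are 3 samples each of the optic fissure (cup cells up to 5 cell diameters from the fissure edge), of the centre of the nasal cup and of the centre of the temporal cup. The labels give no strain, genotype or treatment for any region, and letter the samples of each region A, B and C.

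As background, the D cyclins bind Cdk4 or Cdk6 in G1, and the active kinases phosphorylate the Rb protein, which then releases E2F transcription factors that switch on genes of DNA replication. Cdkn2c belongs to the INK4 inhibitors, which bind Cdk4 and Cdk6, and Cdkn1a, Cdkn1b and Cdkn1c to the Cip/Kip inhibitors, which act on cyclin-kinase complexes. In the mouse retina Ccnd1 is the main D cyclin of dividing progenitors, and Cdkn1b and Cdkn1c act where progenitors leave the cycle. The optic fissure is the ventral gap in the cup whose margins later meet and fuse.

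In the fissure, Ccnd2 and Cdkn1c rose against the mean of the nasal and temporal samples. Ccnd2 changed by 1.17 on the log2(intensity + 16) scale (SE 0.16, limma adjusted p = 9.02e-04) and Cdkn1c by 0.75 (SE 0.12, adjusted p = 0.00288), which are 2.25-fold and 1.68-fold. Ccnd1 went the other way, at -0.78 (SE 0.32), which did not pass (adjusted p = 0.183) and did so once letters were blocked (adjusted p = 0.00279). Unblocked, 2 of the 10 members thus rose and 0 fell, where 8.60% of the 12770 tested genes passed, 5.72% higher and 2.88% lower. Blocking on the letter gave 4 members, Ccnd1 and Cdkn1a being added, where 17.0% of all tested genes passed. Cdkn1a was dim and met the filter for testing only through the fissure arrays, so its call adds little to the count. The members' median change was 0.16 against 0.04 for all tested genes. Of the 10, 8 were above 0, Cdk4 and Cdk6 only barely, where 56.0% of all tested genes were.

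**Figure D1:**
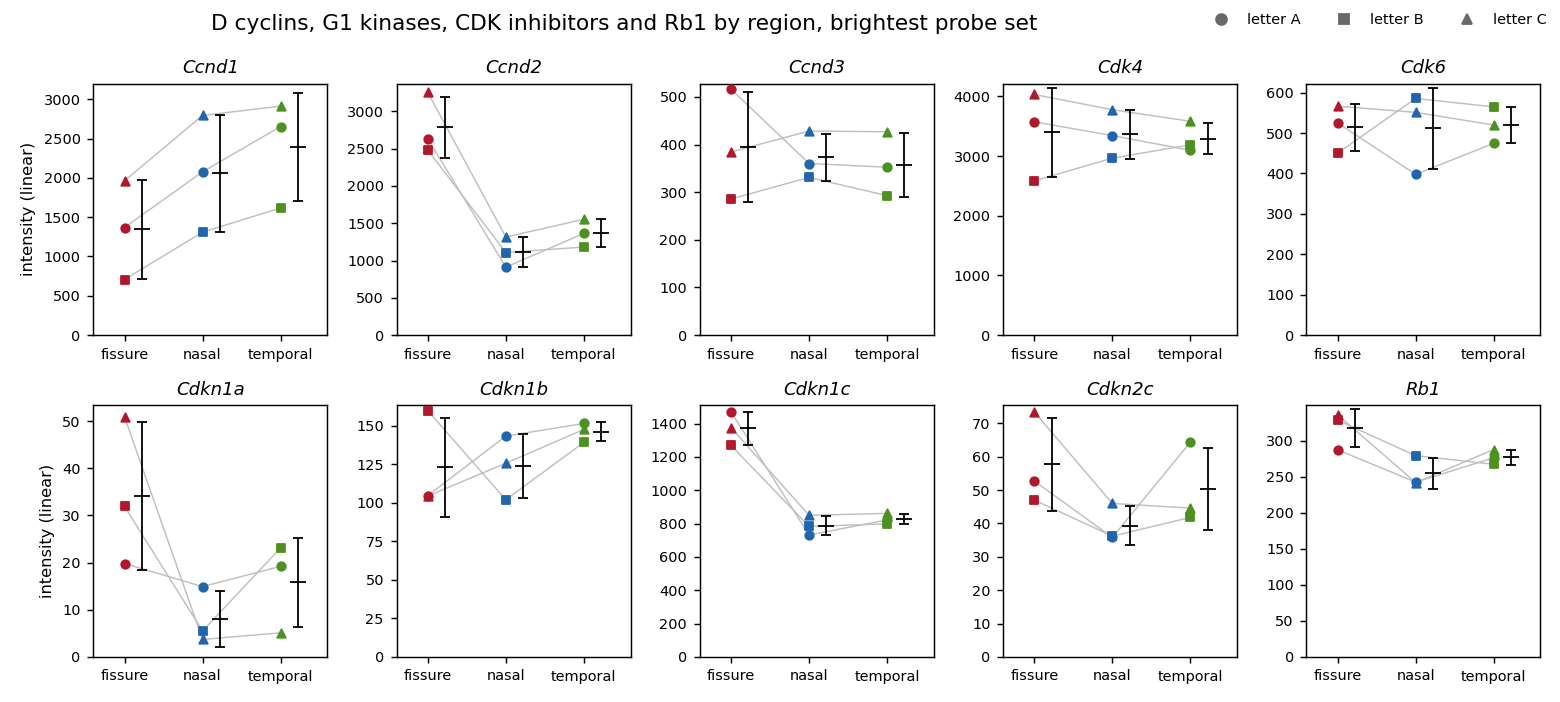
Intensity of the brightest probe set of each of the 10 genes (linear scale) in fissure, nasal and temporal samples. Points are single arrays, marked by letter and joined by a grey line within a letter, and the black mark beside them is the mean ± SD of 3 arrays. The 3 fissure points of Ccnd2 and of Cdkn1c lie above all 6 other points, and within each letter the fissure point of Ccnd1 is the lowest.

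Array-wide measures differed between the regions and bear on these values. A poly-A RNA (dap) spiked in for labelling read 844, 1180 and 2099 in fissure arrays A, B and C, against 493 to 1060 in nasal and 420 to 960 in temporal arrays. The ratio of Gapdh signal at the 3-prime and 5-prime ends, a measure of RNA length, was 8.12, 4.93 and 14.96 in fissure arrays A, B and C, against 4.90 to 8.77 in nasal and 4.46 to 7.42 in temporal arrays. On the first principal component array B of the fissure scored -9.40, arrays A and C scored -38.64 and -43.05, and the nasal and temporal arrays scored 4.63 to 29.52. On this component array B thus stood apart from A and C, and values without array B are given where it decides a result. Fissure array C had the highest poly-A reading and the highest Gapdh ratio of the 9 arrays. Of the brighter markers, the retinal progenitor genes Pax6, Sfrp2 and Six6 read at least 987 on every array, and the pigment epithelium genes Dct and Pmel at least 2395. Others were lower in the fissure, with Fgf15 at 235 to 327 and Mlana at 18.9 to 36.2 there. Pax6 and Sfrp2 themselves fell in the fissure, so these readings do not show an even content across regions. Both marker lists as wholes are given with the other cell types below.

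Among the D cyclins, Ccnd2 gave the clearest difference. Its main probe set (1434745_at) read 2632, 2482 and 3255 in fissure samples A, B and C, against 912, 1108 and 1315 in nasal and 1364, 1181 and 1554 in temporal samples. All 3 fissure samples lay above all 6 others, and such a gap in either direction was seen in 14.2% of tested genes. The mean was 2790 ± 410 in the fissure, 1112 ± 202 in the nasal and 1366 ± 186 in the temporal cup (SD, n = 3 each). The change was 1.32 against the nasal cup (SE 0.19, adjusted p = 0.00152) and 1.02 against the temporal cup (SE 0.19, adjusted p = 0.00805), comparisons in which 6.37% and 5.36% of tested genes passed and which share the fissure samples. Adding the poly-A spike to the model, which was chosen after the data were seen, gave 0.71 against the temporal cup, which did not pass (adjusted p = 0.149). In these bulk captures, more cells with a transcript and more transcript per cell cannot be told apart.

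Ccnd2 is covered by 7 probe sets, and 6 of them rose when each probe set was tested on its own over 23503 probe sets, of which 5.74% passed. Their changes ran from 1.13 to 1.50, with adjusted p between 0.00130 and 0.0284, and in each of the 6 the fissure was the highest region within all 3 letters. The seventh (1416124_at) was dim, at 25.8, 34.0 and 23.3 in the fissure against 10.6 to 17.7 in nasal and 17.5 to 31.2 in temporal samples, and changed by 0.30 (adjusted p = 0.363). Probe sets whose ID holds _s or _x can also bind related transcripts, and 2 of the 6 are of that kind. The other 4 changed by 1.13 to 1.31. The rise of Ccnd2 was thus read by most of its probe sets.

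Ccnd1 is the D cyclin with the most scatter between arrays of one region. Its main probe set (1448698_at) read 1368, 707 and 1962 in fissure samples A, B and C, against 2077, 1309 and 2794 in nasal and 2653, 1617 and 2912 in temporal samples. The regions overlapped, and letter B was the lowest in every region. Within each letter, however, the fissure was the lowest region, and the fissure minus the mean of nasal and temporal was -0.77, -1.02 and -0.54 (log2) in letters A, B and C. Blocked on the letter, the change was -0.66 against the nasal cup (adjusted p = 0.0164) and -0.90 against the temporal cup (adjusted p = 0.00382), where 12.5% and 12.1% of tested genes passed. Neither passed unblocked (adjusted p = 0.392 and 0.229). Without fissure array B the unblocked change was -0.38 (adjusted p = 0.427). With all 3 arrays of letter B left out and the 2 other letters blocked, a fit added once the data were seen, Ccnd1 passed against the mean (-0.65, adjusted p = 0.0201) and the temporal cup (-0.76, adjusted p = 0.0285) but not against the nasal cup (-0.55, adjusted p = 0.0555).

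The 3 Ccnd1 probe sets did not behave alike across the letters. The second (1417420_at) read 661, 826 and 822 in the fissure, against 921, 1215 and 950 in nasal and 888, 1841 and 784 in temporal samples. Where the main probe set was lowest in letter B, this one was highest in letter B in every region, and the Gapdh ratio was lowest in letter B in every region. The dimmest (1417419_at) read 275, 304 and 191 in the fissure, against 488, 277 and 530 in nasal and 521, 329 and 468 in temporal samples. Both had the fissure as the lowest region in 2 of 3 letters. Tested singly, the probe sets changed by -0.78, -0.45 and -0.71, and none passed (adjusted p = 0.226, 0.357 and 0.116). Their mean per gene changed by -0.65 and passed (adjusted p = 0.0124). With the log2 Gapdh ratio as a covariate the main probe set changed by -1.21 (adjusted p = 5.08e-04).

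**Figure D2:**
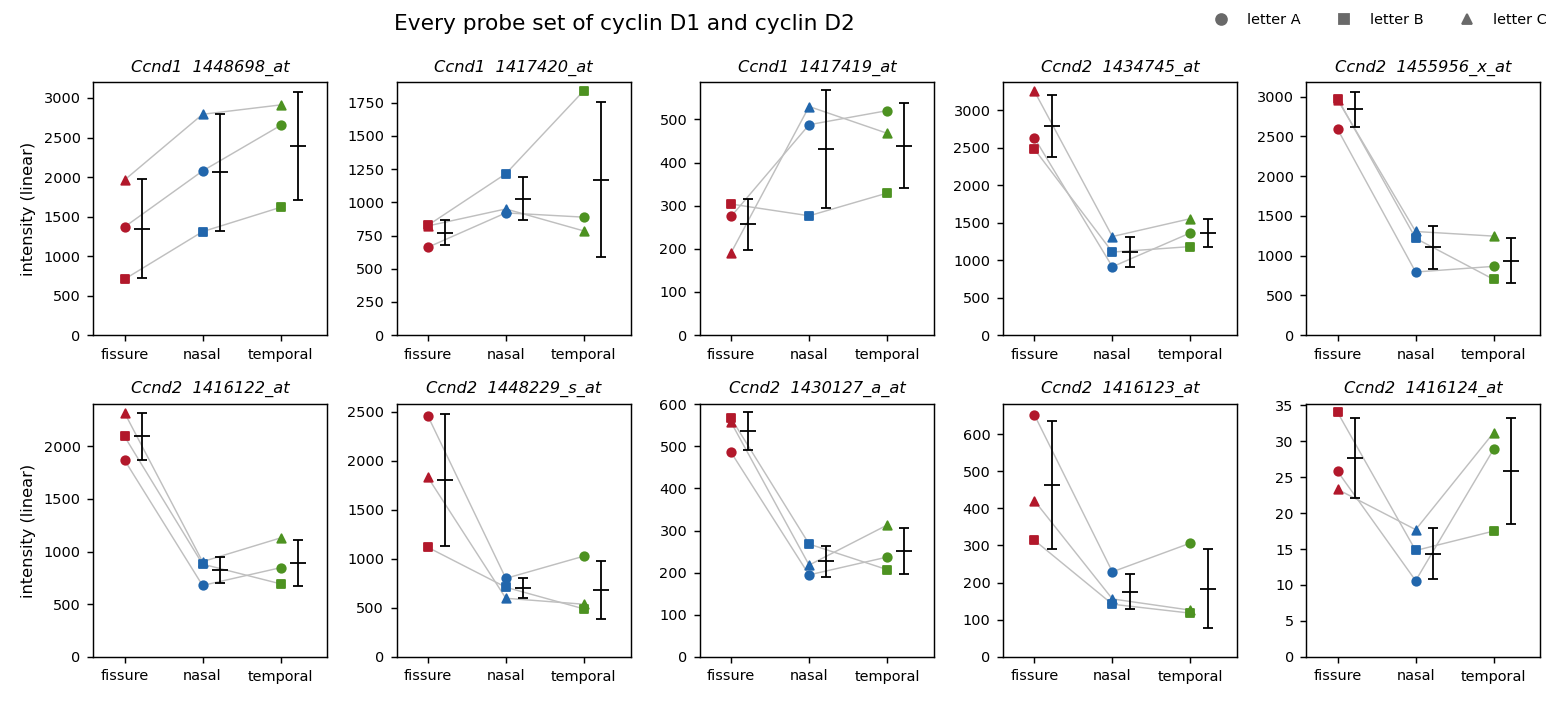
Intensity (linear scale) of the 3 Ccnd1 and 7 Ccnd2 probe sets in fissure, nasal and temporal samples, with points for single arrays joined within a letter and the mean ± SD of 3 arrays beside them. In 6 of 7 Ccnd2 panels the fissure arrays are above all the others, while the Ccnd1 panels overlap and their letters run in different orders.

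Ccnd1 and Ccnd2 thus differed in opposite directions within the same arrays. The log2 difference of Ccnd2 minus Ccnd1, whose absolute size has no meaning between probe sets, was 0.94, 1.79 and 0.73 in fissure samples A, B and C. It was -1.17, -0.24 and -1.08 in nasal and -0.95, -0.45 and -0.90 in temporal samples. The fissure samples did not overlap the others on this measure, and nasal and temporal samples did. It combines a pair of genes picked with their values known, so no test is given.

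Ccnd3 showed no such difference. It read 516, 286 and 385 in fissure samples, against 360, 331 and 429 in nasal and 353, 293 and 427 in temporal samples. The change was 0.08, with a 95% interval of -0.34 to 0.50 (adjusted p = 0.851). Fissure array A alone was above the other regions of its letter. Its other probe sets were dim, at 15.4 to 52.0 and 18.8 to 38.1, and changed by -0.52 (adjusted p = 0.0897) and 0.33 (adjusted p = 0.280) when tested singly.

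The kinases that D cyclins activate did not pass in any of the comparisons. Cdk4 read 3574, 2586 and 4033 in fissure samples, against 3345, 2966 and 3778 in nasal and 3097, 3190 and 3584 in temporal samples. Its change of 0.01 had a 95% interval of -0.35 to 0.37 (adjusted p = 0.982), which leaves room for differences smaller than those of Ccnd2 and Cdkn1c. Fissure array B was the lowest of the 9 and fissure array C the highest, so the fissure spanned both other regions. The other Cdk4 probe sets changed by 0.07 and 0.10. Cdk6 read 525, 450 and 566 in fissure samples, against 398, 586 and 551 in nasal and 475, 565 and 520 in temporal samples, and its change was 0.00048 with an interval of -0.34 to 0.34 (adjusted p = 0.999). A second Cdk6 probe set changed by 0.11, and the dimmest lay between 0.900 and 5.10, below the 40th percentile of every array, and was not tested.

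**Figure D3:**
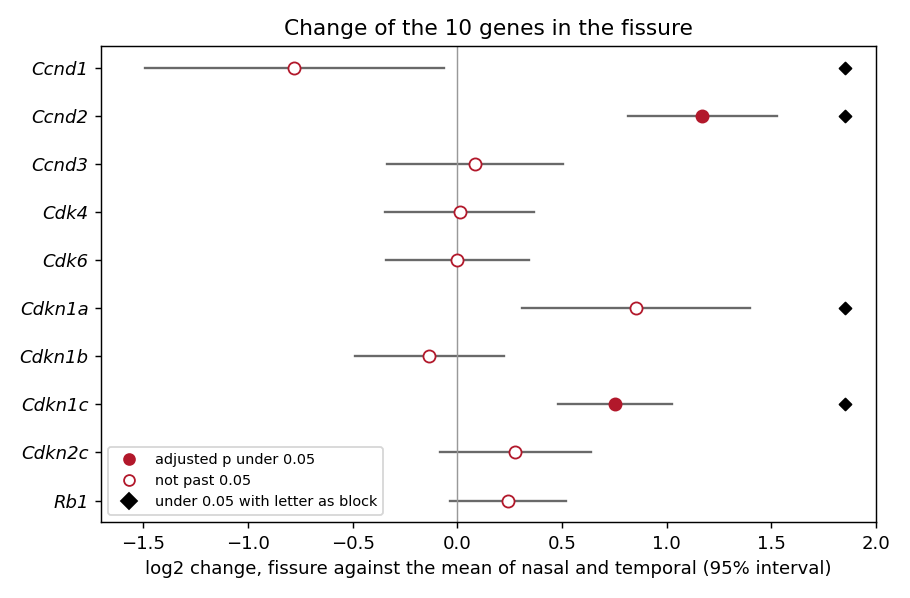
Log2 change of each of the 10 genes between fissure samples and the average of both other regions, with its 95% interval from limma over 9 arrays. Filled points passed at an adjusted p below 0.05, and black diamonds mark genes that passed when blocked on the letter. Ccnd2 (1.17) and Cdkn1c (0.75) are filled, Ccnd1 (-0.78) and Cdkn1a (0.85) have only a diamond, and Ccnd3, Cdk4 and Cdk6 sit near 0. Cdkn1a met the filter for testing only through the fissure arrays.

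Of the inhibitors, Cdkn1c rose. Its single probe set read 1470, 1269 and 1376 in fissure samples, against 732, 783 and 849 in nasal and 822, 799 and 861 in temporal samples. The lowest fissure sample lay well above the highest of the others. The mean was 1372 ± 101 in the fissure, 788 ± 58.9 in the nasal and 827 ± 31.7 in the temporal cup (SD, n = 3 each). The change was 0.79 against the nasal cup (SE 0.14, adjusted p = 0.00697) and 0.72 against the temporal cup (SE 0.14, adjusted p = 0.0130). Against the temporal cup it did not pass without fissure array A, fissure array C or temporal array A (adjusted p = 0.0748, 0.0535 and 0.0522). Adding the poly-A spike to the model gave 0.70 against the mean of both (adjusted p = 0.0531).

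Cdkn1a, a target of p53 that encodes p21, was dim. It read 19.8, 31.9 and 50.9 in fissure samples, against 14.9, 5.50 and 3.70 in nasal and 19.2, 23.1 and 5.10 in temporal samples, where the 40th percentile of an array was 15.7 to 17.5. It lay above that percentile on 5 of 9 arrays, 3 of them fissure arrays. Testing needed 3 arrays above it, which the nasal and temporal arrays without the fissure did not reach. Cdkn1a thus entered the test through the region in which it was higher, and its p-values are no support for a rise. The fissure was the highest region in all 3 letters, 0.12, 0.72 and 1.71 (log2) above the mean of the others, but regions overlapped across letters. The change of 0.85 (SE 0.25) had an adjusted p of 0.0579, and 0.0485 when blocked on the letter, which became 0.106 with letter B left out as well. With a pseudocount of 1 or 64 in place of 16 the change was 1.63 or 0.37, and neither passed (adjusted p = 0.113 and 0.0970). Its other probe set lay between 1.60 and 7.60 and was not tested.

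Cdkn1b, which encodes p27, read 105, 160 and 104 in fissure samples, against 143, 102 and 126 in nasal and 152, 139 and 148 in temporal samples. The change was -0.13 with an interval of -0.49 to 0.22 (adjusted p = 0.688). Fissure arrays A and C were the lowest of their letters and fissure array B the highest of its letter. With weights for array quality the change was -0.33 (adjusted p = 0.0489), in a fit where 4100 of the 12770 tested genes passed, against 1098 without weights. A dimmer probe set scattered more, at 63.9, 87.5 and 5.90 in the fissure, and changed by -0.29 (adjusted p = 0.767).

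Cdkn2c, which encodes the INK4 protein p18, read 52.7, 47.0 and 73.4 in fissure samples, against 35.8, 36.2 and 46.0 in nasal and 64.4, 41.8 and 44.6 in temporal samples. It lay above every nasal sample in the fissure, but not above every temporal one, and its change of 0.28 (interval -0.08 to 0.64) did not pass (adjusted p = 0.365). Rb1 read 287, 329 and 336 in fissure samples, against 243, 279 and 242 in nasal and 276, 267 and 288 in temporal samples. The fissure was the highest region within each letter, 0.14, 0.25 and 0.33 (log2) above the mean of the others, and the change of 0.24 (interval -0.03 to 0.52) did not pass (adjusted p = 0.291). The second Rb1 probe set lay between 0.300 and 16.3 and was not tested.

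Nasal and temporal cup were then compared. None of the 10 members passed in limma, blocked or not, and 0 had an unadjusted p below 0.05, where 0.0470% of tested genes passed, and 0.133% when blocked. Nasal minus temporal was -0.30 for Ccnd2 (SE 0.19) and -0.24 for Ccnd1 (SE 0.38). In 8 of the 10 genes the nasal mean on the log2 scale was the lower one, with a median of -0.17. Of all 12770 tested genes the nasal mean was the higher one in 6367, with a median of -0.00052.

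The members act together with cyclin E, the E2F factors and other inhibitors, so 32 other genes of G1/S control were examined. The array named 31 of them and 30 passed the filter for testing. In the fissure 1 of these passed as higher and 3 as lower, their median being -0.25 against 0.04 for all tested genes, of which 5.72% passed as higher and 2.88% as lower. Blocked on the letter, 1 passed as higher and 12 as lower, where 6.01% of all tested genes passed as lower. The higher one was Cdkn2b, the INK4 inhibitor p15. It read 71.6, 51.3 and 52.4 in fissure samples, against 1.80, 3.50 and 2.50 in nasal and 2.20, 3.10 and 2.80 in temporal samples. It was above the 40th percentile on the 3 fissure arrays only and so entered the test through the region in which it was high, and no p is given for it. Its log2 change has no fixed size, being 1.99 with the pseudocount of 16, 4.03 with 1 and 0.87 with 64.

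The 3 that fell were Ccne1, Mycn and E2f7. Ccne1 encodes cyclin E1, which acts with Cdk2 after the D cyclins, and read 321, 491 and 340 in fissure samples, against 1114, 652 and 1139 in nasal and 992, 1043 and 1142 in temporal samples. Every fissure sample was below every other, and the change was -1.36 (SE 0.20, adjusted p = 0.00139). A second Ccne1 probe set changed by -0.60 and did not pass singly (adjusted p = 0.0752). Mycn, a Myc family factor of neural progenitors, read 836, 825 and 880 in the fissure, against 1195, 1462 and 1374 in nasal and 1362, 1409 and 1621 in temporal samples. It changed by -0.71 (SE 0.13, adjusted p = 0.00529), and did not pass as the mean of its 3 probe sets (-0.36, adjusted p = 0.124), of which the others were dim. E2f7, an E2F factor that represses transcription, read 350, 317 and 412 in the fissure, against 551, 627 and 631 in nasal and 527, 519 and 568 in temporal samples. It changed by -0.65 (SE 0.13, adjusted p = 0.0104), which did not pass without fissure array A (adjusted p = 0.0638).

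Next by p were E2f3 (-0.47, adjusted p = 0.0568), E2f2 (-0.52, adjusted p = 0.0627), Tfdp1, the DNA-binding partner of E2F (-0.41, adjusted p = 0.0706), and E2f6 (-0.43, adjusted p = 0.0740). These 4 passed when blocked on the letter, with adjusted p between 0.0147 and 0.0428. In each of them all fissure samples were below all other samples, and such a gap in either direction was seen in 14.2% of tested genes. They were picked by their p in this same comparison, so the gap is no further support.

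**Figure D4:**
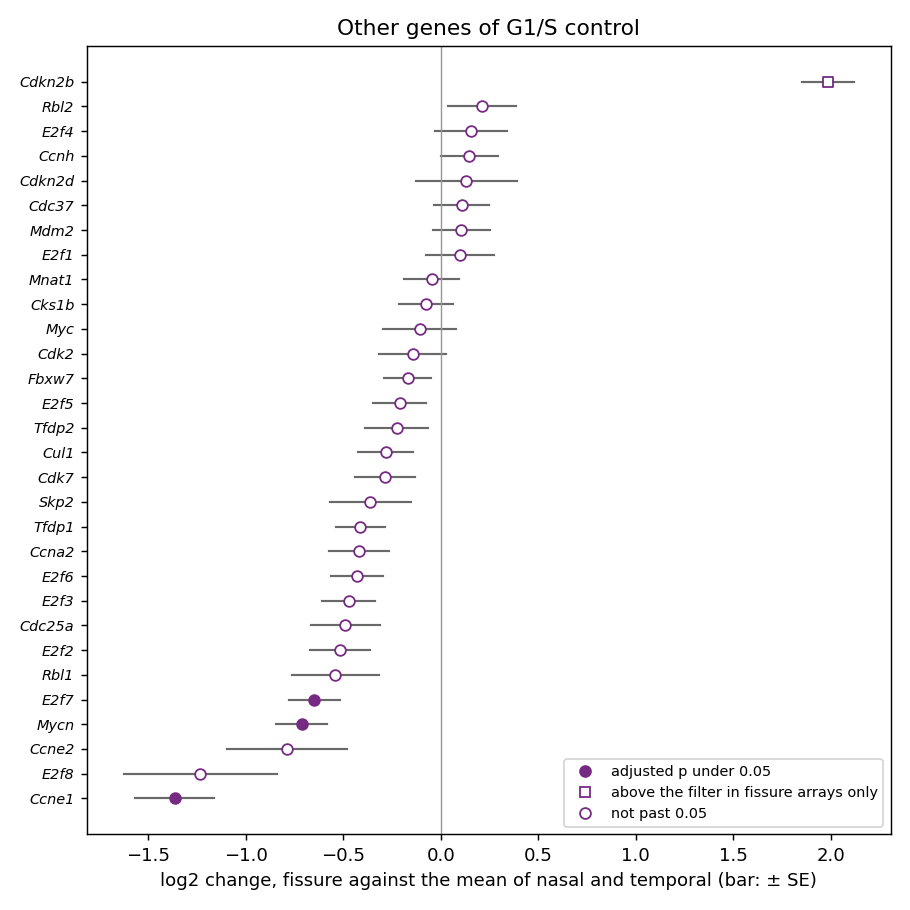
Log2 change between fissure samples and the average of both other regions for the 30 tested genes of G1/S control outside the 10 members, with bars of ± SE. Filled points passed at an adjusted p below 0.05, and the open square is Cdkn2b (1.99), above the filter in fissure arrays only. Ccne1 is the lowest point, at -1.36, and 8 of the 30 lie above 0.

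Genes that E2F switches on for S phase were read next. Of 30 listed, 28 were tested, and 5 fell and 0 rose, where 2.88% of all tested genes fell. The median of the 28 was -0.34, and 12 fell when blocked on the letter, where 6.01% of all tested genes did. The 5 were Cdc6, which loads the replicative helicase (-0.80, adjusted p = 0.00337), the helicase subunit gene Cdc45 (-0.80, adjusted p = 0.00593), Rrm2 of ribonucleotide reductase (-0.70, adjusted p = 0.00618), the primase gene Prim1 (-0.54, adjusted p = 0.0160) and Gins1 (-0.50, adjusted p = 0.0418). Pcna, the sliding clamp, read 3713, 3814 and 3650 in the fissure against 4826 to 5572 in nasal and 4715 to 5450 in temporal samples, and changed by -0.44 (adjusted p = 0.0529, and 0.0209 with the block). Gins1 lost its call in 14 of 22 alternatives, Prim1 in 4, Rrm2 in 2, Cdc6 in 1 and Cdc45 in 0. As the mean of its probe sets Prim1 did not pass (-0.40, adjusted p = 0.102). Against the temporal cup alone Prim1 and Gins1 did not pass (adjusted p = 0.0525 and 0.214). In the same captures 3 of 9 tested retinal progenitor markers fell (Fgf15, Pax6 and Sfrp2), while Lhx2 rose when blocked (0.62, adjusted p = 0.0821 unblocked and 0.00722 blocked). The 9 summed to 8311 to 8946 in fissure samples, against 12448 to 15241 in nasal and 13405 to 14882 in temporal samples, and their part in these falls was not tested.

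Promoters of the genes that fell were read for an E2F motif, because E2F factors bind such letters in genes of this group. The motif was any of TTTCCCGC, TTTGGCGC, TTTCGCGC and TTTGCCGC on either strand in the 250 bases before the gene start, in RefSeq promoters of GRCm38.p6. It is held by 1.86% of all 32851 promoters in the table, by 9 of 36 promoters of the other G1/S genes and by 8 of 32 promoters of the S phase genes. Of the members, 6 matched the table (Ccnd3, Cdk4, Cdk6, Cdkn1a, Cdkn1b and Cdkn2c), and 0 of their 9 promoters hold the motif. Ccnd1, Ccnd2, Cdkn1c and Rb1 have no entry. Among the genes that fell, Mycn (chr12:12941837-12942086, minus strand), E2f7 (chr10:110745189-110745438, plus strand) and Cdc6 (chr11:98907901-98908150, plus strand) hold it and are shown 5′ to 3′ on the strand of the gene, with the motif in capitals.
Mycn: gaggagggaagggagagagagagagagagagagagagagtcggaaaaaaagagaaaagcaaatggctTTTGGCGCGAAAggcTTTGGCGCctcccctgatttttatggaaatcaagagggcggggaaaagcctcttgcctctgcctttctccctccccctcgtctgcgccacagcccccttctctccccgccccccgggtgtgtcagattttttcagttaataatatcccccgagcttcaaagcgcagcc
E2f7: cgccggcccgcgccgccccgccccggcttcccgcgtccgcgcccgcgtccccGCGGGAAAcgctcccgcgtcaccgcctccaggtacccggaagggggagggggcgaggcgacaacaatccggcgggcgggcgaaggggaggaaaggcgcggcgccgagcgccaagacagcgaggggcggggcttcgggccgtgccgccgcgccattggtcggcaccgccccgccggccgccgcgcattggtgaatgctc
Cdc6: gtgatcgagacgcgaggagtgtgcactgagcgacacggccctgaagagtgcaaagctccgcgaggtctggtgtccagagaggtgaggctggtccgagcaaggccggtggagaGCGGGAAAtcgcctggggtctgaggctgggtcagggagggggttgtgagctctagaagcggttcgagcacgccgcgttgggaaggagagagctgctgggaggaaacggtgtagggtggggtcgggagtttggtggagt
In Mycn there are 3 matches, starting 183 to 168 bases before the gene start, and a pair of them overlap. In E2f7 the match starts 198 bases and in Cdc6 138 bases before it. Ccne1, Cdc45, Prim1 and Rrm2 have an entry without these letters in the window. A match is a stretch of letters and no measure of binding.

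Cdkn1a is switched on by p53, so 18 other p53 targets were read beside it. Of 13 tested, 1 rose and 0 fell, where 8.60% of all tested genes passed, and their median was 0.11. The one was Plk2, a kinase gene, at 485, 377 and 619 in fissure samples, against 117, 75.0 and 114 in nasal and 99.7, 81.9 and 101 in temporal samples (2.15, SE 0.18, adjusted p = 3.38e-05). Trp53inp1 (0.53, adjusted p = 0.0883) and Sesn1 (0.51, adjusted p = 0.0979) were next and passed only with the block (adjusted p = 0.0380 and 0.0457). Cdkn1c is an imprinted gene, expressed from the maternal copy, and among 12 other imprinted genes tested 1 rose and 0 fell, which is near the 8.60% of all tested genes, and their median was 0.06. This was Peg3 (0.51, adjusted p = 0.0243), with Mest next (-0.32, adjusted p = 0.197). The list is partial: the imprinted genes Meg3 (1.05, adjusted p = 0.00409) and Rian (0.75, adjusted p = 0.0138) are outside it and passed as higher. Imprinted genes outside the list were not counted in either direction. Peg3 lost its call in 4 of 22 alternatives, among them the mean of its 5 probe sets (0.32, adjusted p = 0.165). Against the temporal cup alone Peg3 did not pass (adjusted p = 0.163).

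The genes most like Ccnd2 over the 9 samples, by Pearson correlation of log2 values among all tested genes, were Slc13a3 (r = 0.982), Epb41l2 (0.980) and Gpd1l (0.979). Those most like Cdkn1c were Itga8, an integrin subunit gene (0.988), Sox1 (0.987) and Cd68, a macrophage gene (0.987). They are the highest among all tested genes, and the 9 points share the 3 regions. Itga8 read 223, 160 and 180 in the fissure, against 30.5 to 50.6 in nasal and 32.3 to 40.8 in temporal samples. Sox1 was dim, at 37.3, 22.6 and 32.8 in the fissure, against 0.900 to 5.70 in nasal and 2.10 to 4.30 in temporal samples. It was above the 40th percentile on the 3 fissure arrays only, and so was listed only through the region in which it was high.

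Markers of other cell types differed in the fissure as well, but not all in the same direction. The summed intensity of 14 macrophage and leukocyte markers was 3566, 2954 and 3570 in fissure samples A, B and C. It was 550 to 820 in nasal and 439 to 698 in temporal samples. Of these markers 13 of 13 tested rose, where 5.72% of all tested genes did. Among them Aif1, C1qa and C1qc were above the percentile of the filter on the fissure arrays only. They entered the test through the region in which they were high, so their calls add little to the count. The sum of 10 lens markers was 2537, 3666 and 2586 in fissure samples A, B and C, against 692 to 750 in nasal and 618 to 1321 in temporal samples. Of 9 tested lens markers 5 rose, among them the crystallin genes Cryaa, Cryba1, Crybb1 and Crybb3, and 8 were above 0, while Foxe3 was below the filter at 1.10 to 4.40. The sum of 12 periocular mesenchyme markers was 2928, 1377 and 2874 in fissure samples A, B and C, against 872 to 1441 in nasal and 718 to 1552 in temporal samples, with 5 of 12 higher and 2 lower. None of 8 endothelial and 5 erythroid markers passed unblocked, though 2 and 3 of them had an unadjusted p below 0.05 in limma. Blocked on the letter, 1 and 3 of them passed as higher, where 1405 of 12770 tested genes did. The 6 erythroid markers on the array summed to 13308 to 17812 in the fissure, against 9442 to 14789 in nasal and 11510 to 13320 in temporal samples. All 5 tested erythroid markers were above 0, with a median of 0.69. Of the endothelial ones 7 of 8 were above 0, with a median of 0.34, Kdr reading 105 to 260 over the 9 arrays and Pecam1, below the filter, 1.40 to 14.7. Retinal neuron markers summed to 254 to 684 in the fissure, against 391 to 978 in nasal and 994 to 1262 in temporal samples, with 3 of 9 lower. The 10 pigment epithelium markers summed to 11738 to 14239 in the fissure, against 14787 to 17723 in nasal and 13300 to 16976 in temporal samples. Of these 5 fell (Mlana, Oca2, Slc45a2, Ttr and Tyr) and Mitf rose, with a median of -0.60. The part of any of these cell types in the rises of Ccnd2 and Cdkn1c was not tested.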

How the data were processed

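RNA of 9 laser-captured samples (3 each of optic fissure, nasal and temporal optic cup, all at E11.5) was measured on Affymetrix arrays. The authors deposited linear intensities, 1 per probe set and array. Their summary and scaling steps are not stated in any label. The mean trimmed by 2% at each end is 150 on every array, and values were used as deposited. Array medians ran from 27.5 to 30.3. The number of arrays limits the precision. Since no label says that samples came from separate embryos, the p-values cover sample spread that may be technical.

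Names came from the platform annotation (34945 probe sets with 1 symbol, 932 with several, 9160 unnamed, 64 controls). Each gene's brightest probe set was turned into log2(intensity + 16), which understates the change of dim genes, and tested if 3 or more arrays had it above their own 40th percentile. All 10 members passed this filter. With limma 3.58.1 (R 4.3.3, lmFit and eBayes) a model with 1 mean for each region took in the 9 arrays, and p-values were adjusted over 12770 genes by Benjamini-Hochberg, with 0.05 as the threshold. Every adjusted p in the text is from limma.

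Whether letters pair the samples was checked through each array's distance from its region's mean, gene by gene. Arrays of the same letter correlated at 0.166 to 0.487 (9 pairs) and others at -0.438 to 0.218 (18 pairs). Every same-letter value is over 0.1, so letters were taken as pairs in the blocked fits, from the data and not from the labels. The ranges overlap, since the highest other-letter value (0.218) is above the lowest same-letter value (0.166). Distances from a region's own mean cancel out within that region, so higher same-letter values bring lower other-letter values with them. The pairing is thus uncertain. The reported model leaves the letters out, and the blocked fit is an alternative to it.

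The members and lists were chosen with earlier results of these data known. Named genes are all members, G1/S genes that passed and the next 4 by p, the leading genes of the other lists by p, and the 3 genes most correlated with each member that passed. Alternatives covered the filter, the pseudocount, normalization, probe set choice, array weights, covariates, blocking and left-out arrays. Figures were drawn with matplotlib 3.10.9.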

Additional observations from a re-analysis of the deposited data

How the results depend on the processing

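Across 23 alternatives, 990 recomputed changes of single genes were compared with the reported ones: 872 kept their direction and their side of the threshold, 43 lost their call, 59 gained one and 16 turned sign. The turns were all in Ccnd3, Cdk4, Cdk6 and in Ccnd1 between nasal and temporal cup, none of which passed. Ccnd3 (reported 0.08) was -0.037 as the mean of its probe sets, -0.051 with the Gapdh ratio as covariate and -0.12 to 0.29 when 1 array was left out. Cdk4 (0.01) was -0.14 with the Gapdh ratio, -0.16 with the poly-A spike and -0.12 to 0.19 with 1 array left out, and Cdk6 (0.00048) was -0.037, -0.17 and -0.082 to 0.090 in the same order. Ccnd1, nasal minus temporal, was -0.50 to 0.053 with 1 array left out. The members called against the mean of both regions, the nasal and the temporal cup were 2, 2 and 2 as reported. With the replicate block on letters they were 4, 4 and 3, and array weights gave 4 against the mean and 4 against the temporal cup. Cdkn1a, tested only through the fissure arrays, is in the block counts against the mean and against the nasal cup. The poly-A spike, added once the data were seen, gave 1, 1 and 0, and 1 array left out gave 1 to 2 against the temporal cup. In the same 3 comparisons the genes called were 1098, 814 and 685 as reported. They were 2172, 1592 and 1541 with the replicate block, 2637, 1973 and 1526 with that block and letter B left out, 4100, 2675 and 3133 with array weights, and 446, 410 and 277 with the poly-A spike. With 1 array left out they were 545 to 1721, 420 to 1245 and 372 to 1161, the lowest without fissure array A and the highest without fissure array B. Between nasal and temporal cup, 6 genes were called as reported, 17 with the replicate block, 10 with array weights or the Gapdh ratio, 3 without letter B (blocked or not) or with those regions alone, and 2 to 8 with 1 array left out. The cause of these shifts was not tested. Fitting only the compared regions gives no value for the mean of both. Cdkn1a dropped out of testing at the 60th percentile and as a mean of its probe sets. Arrays this few, and signal near the 40th percentile, limit what can be said of Cdkn1a and Cdkn2b.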
